A study of Homo sapiens with 4 samples.

Results

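The genes described here are 45 genes of the short arm of chromosome 6, from JARID2 nearest the telomere to RAB23 nearest the centromere, out of 26726 genes listed in the deposited tables. None of them is an HLA or HIST gene, and they were chosen by name because the windows of chromosome 6 from 10 to 60 Mb moved down together in ATAD3A KO over parental HN12 cells. The same comparison therefore chose them, so the KO over WT values of these members are given as a description and carry no test. RNA sequencing was done on 4 libraries of HN12, a human head and neck squamous cell carcinoma (HNSCC) cell line. The WT group was the unedited parental line with 2 libraries, and the ATAD3A KO group was a line derived from it by genome editing of ATAD3A with 2 libraries, and no treatment is named for either group. KO clones were grown from single cells, and which clone or clones were sequenced is not given in the sources used here. The loss of ATAD3A and any other difference between a clone and its parental line therefore cannot be told apart. ATAD3A encodes an ATPase of the inner mitochondrial membrane.

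The short arm of chromosome 6 carries the major histocompatibility complex and the largest cluster of histone genes, and between and around them lie genes of many unrelated functions. Among these are subunits and regulators of chromatin complexes, a highly expressed cytosolic chaperone, tubulin, kinases and enzymes of metabolism. E2F3 and DEK lie in a segment of the arm known for copy gains in several human tumours. Neighbouring genes share a chromosome copy, whereas the partners of their products in protein complexes are mostly encoded elsewhere in the genome. The label of the set holds for gene names only, since 7 of the 45 members (TUBB, FLOT1, DDR1, GTF2H4, BAG6, CSNK2B and EHMT2) lie between the outermost HLA genes tested.

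The libraries held 13569971 to 18943547 counts, and 15104 genes passed the filter on low counts. ATAD3A was at 38.1 and 30.0 CPM in KO (CPM are counts scaled to the library total, here with TMM factors) and at 116 and 106 CPM in WT, with a log2 fold change of -1.70 ± 0.091 (SE). All 8 squamous epithelial markers were over 1 CPM in every library. Their summed level was 4908 and 4965 CPM in KO against 2551 and 2473 CPM in WT, with KRT5 the largest. KRT5 alone was at 2468 and 2440 CPM in KO against 402 and 391 CPM in WT, and so made up most of the difference between these sums. The part of this difference in the members' values was not tested. Of 8 fibroblast and 8 leukocyte markers, 6 and 5 were listed under these symbols in the deposited tables. Of those listed, only COL1A1 among the fibroblast and only CD14 among the leukocyte markers passed 1 CPM in every library. The summed levels of these lists were 12.2 to 16.9 CPM and 2.87 to 4.76 CPM, and the leukocyte marker PTPRC held 1 to 9 counts a library.

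Of the 45 members, 44 passed the filter on low counts, and GTF2H4 did not. Of the 44, 39 had a log2 fold change below 0 and 5 had one above 0 (SOX4, FKBP5, PIM1, BYSL and DST). Scaled by library totals only, 41 lay below 0, SOX4 and PIM1 among them. At an adjusted p under 0.05 in the edgeR fit over all genes, 22 members were called lower in KO and 0 higher. In the whole fit 19.1% of tested genes were called lower and 20.4% higher, or 2891 and 3074 genes, and nothing is read from the members' share, since the rule used this contrast. Scaled by library totals only, 3615 genes were called lower and 2508 higher, 25 and 0 of them members. DESeq2 called 18 members lower and 0 higher, beside 2202 lower and 2385 higher among the 15104 genes tested. At an unadjusted p under 0.05, 0 members were higher in edgeR, DESeq2 or limma. In bulk RNA of a culture, fewer cells of a kind and less RNA per cell cannot be told apart. The median log2 fold change was -0.27 over the members, or 0.832 of the WT level, and -0.0042 over all genes tested. Values ranged from -0.86 for KCTD20 to 0.17 for FKBP5 with an SD of 0.23 between members. In 11 members the log2 fold change was smaller in size than its own standard error.

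**Figure D1:**
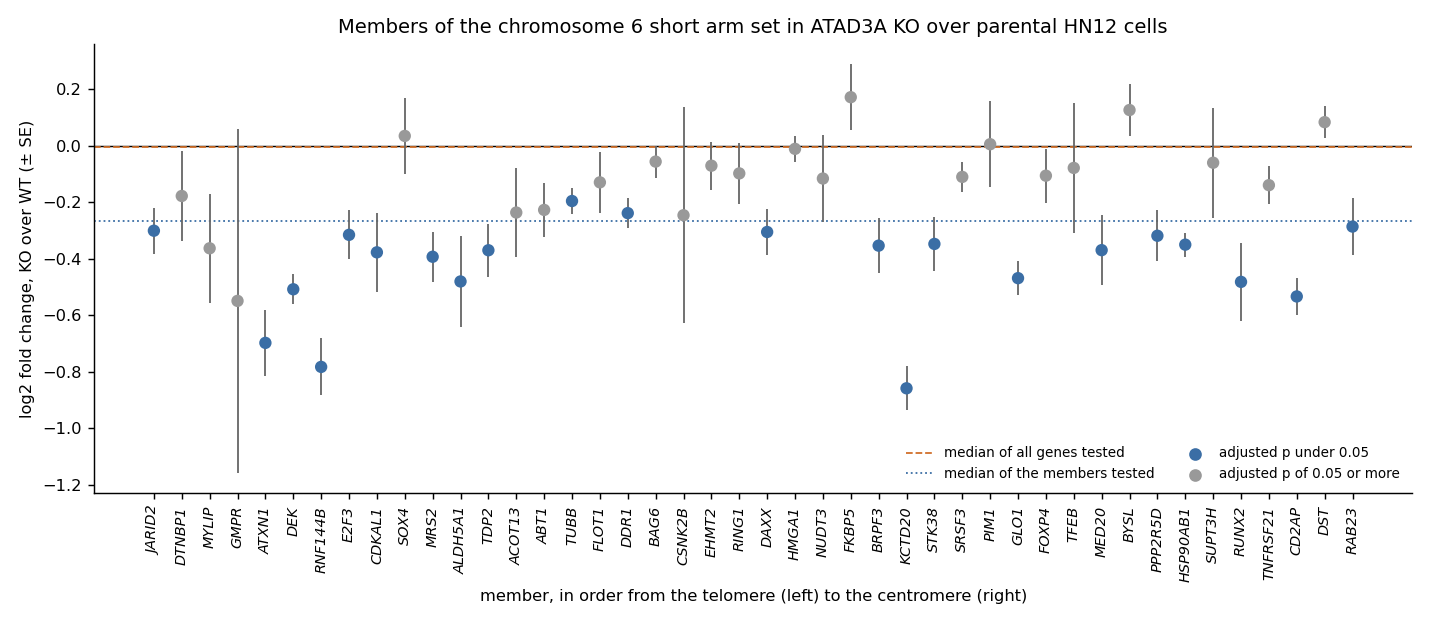
Log2 fold change of each of the 44 tested members in ATAD3A KO over parental HN12 cells (vertical axis, points with SE bars), placed in their order along the arm (horizontal axis). Blue points passed an adjusted p under 0.05. Most points lie between 0 and -0.6, KCTD20 (-0.86), RNF144B (-0.78) and ATXN1 (-0.70) lie lowest, and 5 members lie above 0.

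Both KO libraries lay below both WT libraries in 32 of the 44 members, against 34% of all genes tested. Both KO libraries lay above both WT libraries in 2 members, FKBP5 and BYSL, against 34.1% of all genes, and the groups overlapped in the other 10. Again the rule used this contrast, and nothing is read from these shares. Summed over all 45 members, TMM-scaled levels were 9253 and 9009 CPM in KO and 10893 and 10578 CPM in WT, so both KO sums lay below both WT sums. HSP90AB1, TUBB and HMGA1 made up most of these sums, with means of 3508, 1978.5 and 1623 CPM in WT. Their means in KO were 2753, 1728 and 1611 CPM. The median log2 ratio over the members was 0.026 between the KO libraries and 0.018 between the WT libraries. Across groups it lay between -0.31 and -0.23 for the 4 pairs of a KO and a WT library. By size, 6 members were lower by more than 0.5 on the log2 scale, 16 by 0.25 to 0.5 and 17 by less than 0.25.

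Levels per length (RPKM, counts divided by gene length and library total) spread widely among the members. In WT, 7 members were over 100 RPKM, namely HSP90AB1, HMGA1, TUBB, SRSF3, DEK, DDR1 and GLO1. A further 21 lay between 10 and 100 RPKM, 15 between 1 and 10, and GMPR and GTF2H4 under 1. The log10 of the WT level and the log2 fold change had a Pearson r of 0.065 over 44 members, and the log10 of gene length and the log2 fold change an r of -0.12. Both are descriptions across genes of the same 4 libraries.

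**Figure D2:**
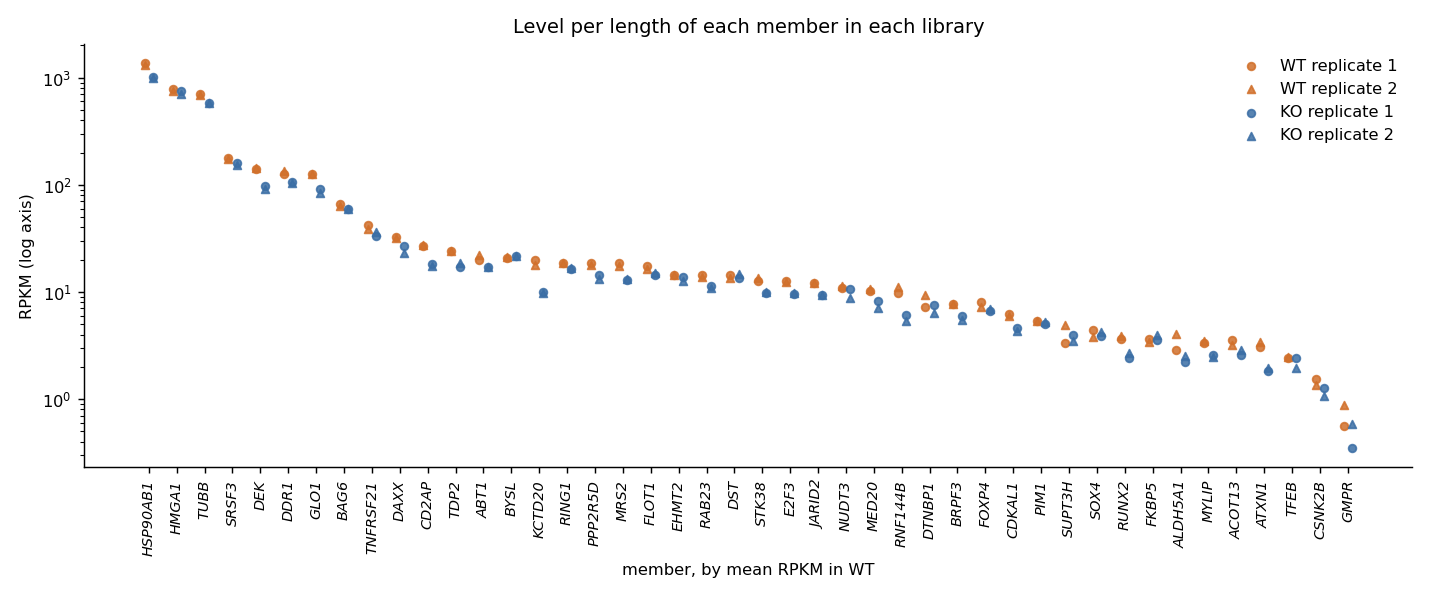
RPKM on a log axis (vertical) of each member in each library, with members ordered by their mean RPKM in WT (horizontal). Orange marks WT and blue KO, circles replicate 1 and triangles replicate 2, and GTF2H4 is left out because it had 0 counts in 3 libraries. HSP90AB1 is the highest member, at 1342 RPKM in WT and 1003 RPKM in KO, and the lowest drawn, GMPR, lies under 1 RPKM.

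The 7 chromatin regulators all had a log2 fold change below 0, with a median of -0.30, and 4 of them were called. DEK, a chromatin-bound protein that shapes DNA, was the lowest of them, at 343 and 322 CPM in KO against 470.0 and 476 CPM in WT, a log2 fold change of -0.51 ± 0.054 (SE). HMGA1, an architectural protein that binds AT-rich DNA, was both the highest in level (769 RPKM in WT) and the least changed. It was at 1649.5 and 1573 CPM in KO and 1661 and 1586 CPM in WT, with a log2 fold change of -0.011 ± 0.046, so the groups overlapped. JARID2, an accessory subunit of Polycomb repressive complex PRC2, gave -0.30, BRPF3, a scaffold of histone acetyltransferases, gave -0.35, and DAXX, a histone chaperone, gave -0.30. RING1, a ubiquitin ligase of PRC1, and EHMT2, a histone methyltransferase, gave -0.10 and -0.070 and were not called. Reads of DAXX are less certain, since 14.3% of its exonic bases lie in exons of another gene on the same strand, and its call was lost without KO replicate 2 (-0.18).

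Transcription factors were mixed, with a median of -0.11 over 5 genes and 2 called lower. RUNX2, the master regulator of bone formation, was lowest, at 14.0 and 15.9 CPM in KO against 20.1 and 21.5 CPM in WT, a log2 fold change of -0.48 ± 0.14 (SE). Its call was lost without KO replicate 1 (-0.39). E2F3, which drives entry into S phase, had the highest level of the group per length (12.6 RPKM in WT) and was at 46.8 and 47.1 CPM in KO against 58.8 and 57.9 CPM in WT (-0.32 ± 0.087). In both genes the KO libraries lay below the WT libraries. SOX4, a developmental HMG-box factor, was at 19.3 and 21.0 CPM in KO and 21.1 and 18.1 CPM in WT (0.035 ± 0.13), with overlapping groups. FOXP4, a forkhead factor, and TFEB, a regulator of lysosomal genes, gave -0.11 and -0.078, and their groups overlapped too.

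Of the 5 genes of the transcription machinery and its coregulators, 4 were tested, all with a log2 fold change below 0 and 2 called. ATXN1, ataxin-1, a transcriptional corepressor, was lowest, at 20.1 and 21.0 CPM in KO against 31.6 and 35.0 CPM in WT (-0.70 ± 0.12, SE). SUPT3H, a subunit of the SAGA coactivator, was highest, at 9.82 and 8.47 CPM in KO within the WT range of 7.75 and 11.4 CPM (-0.060 ± 0.19). ABT1, an activator of basal transcription and the gene of this group with the highest level per length (20.9 RPKM in WT), was at 39.7 and 39.1 CPM in KO below 44.0 and 48.4 CPM in WT (-0.23 ± 0.095) and was not called. MED20, a subunit of the Mediator head, gave -0.37, and its call was lost without KO replicate 2 (-0.25), WT replicate 1 (-0.39) or WT replicate 2 (-0.35). GTF2H4, a subunit of the general factor TFIIH, held 2 counts in WT replicate 1 and 0 in each of the other libraries, at or under the limit of 3 counts that a count of 0 allows. In GENCODE 79% of its exonic bases also lie in exons of VARS2 on the same strand, and how the authors' counting treated such reads is not given in the sources used here.

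Among 3 genes of RNA processing, ribosome assembly and tRNA modification, 1 was called. CDKAL1, which modifies tRNA, was at 15.5 and 14.6 CPM in KO against 19.9 and 19.1 CPM in WT (-0.38 ± 0.14, SE), and its call was lost without KO replicate 2 (-0.32), WT replicate 1 (-0.34) or WT replicate 2 (-0.41). BYSL, bystin, which acts in assembly of the small ribosomal subunit, was at 45.3 and 44.6 CPM in KO, above 40.9 and 41.6 CPM in WT (0.13 ± 0.094). SRSF3, a splicing factor and the highest of the group at 176 RPKM in WT, was at 335 and 319 CPM in KO below 356 and 350.3 CPM in WT (-0.11 ± 0.054). Neither BYSL nor SRSF3 was called, although the libraries of the 2 groups did not overlap in either gene.

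The kinases, phosphatase and signalling receptors comprised 7 genes with a median of -0.25, and 4 were called. KCTD20, a member of the KCTD family of BTB domain proteins (chr6:36442767-36491143 on GRCh38), had the lowest value of all members. It was at 57.7 and 56.8 CPM in KO against 110 and 97.7 CPM in WT, a log2 fold change of -0.86 ± 0.078 (SE), or 44.8% lower. DDR1, a receptor tyrosine kinase for collagen and the highest of the group at 130.1 RPKM in WT, was at 448 and 446 CPM in KO against 514 and 541 CPM in WT (-0.24 ± 0.052). In KCTD20 and DDR1 the KO libraries agreed more closely with each other than the WT libraries did. PIM1, a serine/threonine kinase, was at 13.6 and 14.2 CPM in KO and 13.8 and 13.9 CPM in WT (0.0057 ± 0.15), with the WT libraries inside the KO range. STK38, a kinase of the NDR family, gave -0.35, PPP2R5D, a regulatory subunit of phosphatase PP2A, gave -0.32, and both were called. The call of STK38 was lost without WT replicate 2 (-0.31), and that of PPP2R5D without KO replicate 2 (-0.24) or WT replicate 1 (-0.28). In PPP2R5D 36% of exonic bases overlap MEA1 on the other strand, and use of strand in the counting is not given in the sources used here. TNFRSF21, a death receptor, gave -0.14 and was not called, but was called lower without KO replicate 2 (-0.19). CSNK2B, the regulatory subunit of casein kinase 2, held only 43, 32, 42 and 33 counts, gave -0.25 ± 0.38, and shares 29% of its exonic bases with genes on the same strand.

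The 5 genes of protein folding and ubiquitin ligation held both the second lowest and the highest value of the set, and 2 were called. RNF144B, a ubiquitin ligase of the RBR class (chr6:18387350-18468874), was at 31.5 and 27.9 CPM in KO against 48.3 and 54.1 CPM in WT (-0.78 ± 0.10, SE), or 41.9% lower. HSP90AB1, the constitutive cytosolic HSP90, was the most abundant member and was at 2798 and 2707 CPM in KO against 3573 and 3443 CPM in WT (-0.35 ± 0.043). Its reads may be split with near-identical copies, as may those of TUBB and HMGA1, since the counting of reads that match several places is not given in the sources used here. FKBP5, a co-chaperone of HSP90 that is known to bind steroid receptors (chr6:35573585-35728583), was at 26.8 and 30.2 CPM in KO, just above 26.2 and 24.4 CPM in WT (0.17 ± 0.12). MYLIP, a ubiquitin ligase for lipoprotein receptors, gave -0.36, and BAG6, a chaperone for membrane proteins, gave -0.056, and neither was called.

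Metabolic, mitochondrial and DNA repair genes had the lowest median of the 8 role groups, -0.39 over 7 genes, all below 0, with 4 called, although with offsets for GC content and length that median was -0.26. GLO1, which detoxifies methylglyoxal, had the highest level of the group (126 RPKM in WT) and was at 188 and 172 CPM in KO against 251 and 247 CPM in WT (-0.47 ± 0.059, SE). MRS2, a magnesium channel of the inner mitochondrial membrane, gave -0.39, and TDP2, which removes topoisomerase adducts from DNA ends, gave -0.37. ALDH5A1, which oxidises succinic semialdehyde in mitochondria, gave -0.48. The ALDH5A1 call rested on single libraries, since it was lost without KO replicate 1 (-0.39) and without WT replicate 2 (-0.20). ACOT13, an acyl-CoA thioesterase, gave -0.24 and was not called, and 12.3% of its exonic bases overlap exons on the other strand. GMPR, GMP reductase, had the lowest value of the group (-0.55 ± 0.61) on 10, 15, 13 and 18 counts, or 0.542 and 0.914 CPM in KO against 0.839 and 1.29 CPM in WT, so at this depth no difference was detectable. NUDT3, a phosphohydrolase of inositol phosphates, had the highest value (-0.12 ± 0.16), with 15.1 and 12.1 CPM in KO and 14.4 and 15.2 CPM in WT. GENCODE lists NUDT3 under another gene identifier than the deposited tables, and of the exonic bases of that gene 43.3% overlap RPS10-NUDT3 on the same strand and 71.6% overlap AL354740.1 on the other strand, so reads of NUDT3 are less certain.

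The 6 genes of the cytoskeleton, membranes and trafficking had a median of -0.19, with 3 called. CD2AP, an adaptor that links membrane receptors to actin, was lowest, at 102 and 97.0 CPM in KO against 143 and 145 CPM in WT (-0.53 ± 0.065, SE). TUBB, a beta-tubulin and the group's most abundant gene (697 RPKM in WT), was at 1744 and 1712 CPM in KO against 2022 and 1935 CPM in WT (-0.20 ± 0.045), and its call was lost without WT replicate 1 (-0.16). Of the exonic bases of TUBB 16% overlap AL662797.1 on the other strand. In both CD2AP and TUBB the KO libraries lay below the WT libraries. DST, dystonin, the plakin that ties keratin filaments to hemidesmosomes, was at 333 and 366 CPM in KO and 339 and 321 CPM in WT (0.084 ± 0.056) and was not called, but was called higher without KO replicate 1 (0.16). RAB23, a small GTPase of Hedgehog signalling, gave -0.29 and lost its call without KO replicate 2 (-0.24) or WT replicate 1 (-0.23). Of its exonic bases 57.7% overlap BAG2 on the other strand. FLOT1, a scaffold of lipid rafts, and DTNBP1, dysbindin, gave -0.13 and -0.18 and were not called.

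Several members are direct neighbours. TDP2 and ACOT13 are transcribed head to head with 1 base between their GENCODE gene models, and gave log2 fold changes of -0.37 and -0.24, a difference of 0.13 with an SE of 0.18. MED20 and BYSL are also head to head, 48 bases apart, and gave -0.37 and 0.13. They differed by 0.50 with an SE of 0.15 that treats the genes as independent, and with offsets for GC content and length they gave -0.41 and -0.089. KCTD20 and STK38 lie tail to tail 2748 bases apart and differed by 0.51 with an SE of 0.12, from -0.86 to -0.35. JARID2 with DTNBP1, 760 bases apart, and TUBB with FLOT1, 2282 bases apart, lie tail to tail and differed by 0.12 and 0.066, with SEs of 0.18 and 0.12. SUPT3H and RUNX2, whose gene models overlap on opposite strands, differed by -0.42 with an SE of 0.24.

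The promoter windows of these neighbours and of the members with the lowest and the highest log2 fold change are shown because the pairs share or abut their start regions while the extremes differ in sequence. Each window runs from 250 bases before to 50 bases after the RefSeq gene start on GRCh38.p14, 5′ to 3′ on the gene's strand. Capitals mark every match on either strand to 6 motifs, namely the CCAAT box, the GC box core GGGCGG, the E-box CACGTG, the TATA box form TATAAA, the E2F site form TTTGGCGC and the form CGCGTG. The window of TDP2, chr6:24666850-24667149 on the minus strand, shares 277 bases with that of ACOT13, chr6:24666827-24667126 on the plus strand, so only the latter is printed. MED20 is at chr6:41920894-41921193 on the minus strand and BYSL at chr6:41921249-41921548 on the plus strand, with no shared base. KCTD20 is at chr6:36442750-36443049 on the plus strand and FKBP5 at chr6:35728534-35728833 on the minus strand.
ACOT13: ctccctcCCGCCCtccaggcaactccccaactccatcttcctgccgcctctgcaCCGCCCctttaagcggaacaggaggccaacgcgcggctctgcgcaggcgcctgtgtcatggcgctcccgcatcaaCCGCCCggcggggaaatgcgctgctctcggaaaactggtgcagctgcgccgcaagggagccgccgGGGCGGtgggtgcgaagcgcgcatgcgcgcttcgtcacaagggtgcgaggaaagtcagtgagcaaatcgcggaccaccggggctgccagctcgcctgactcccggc
MED20: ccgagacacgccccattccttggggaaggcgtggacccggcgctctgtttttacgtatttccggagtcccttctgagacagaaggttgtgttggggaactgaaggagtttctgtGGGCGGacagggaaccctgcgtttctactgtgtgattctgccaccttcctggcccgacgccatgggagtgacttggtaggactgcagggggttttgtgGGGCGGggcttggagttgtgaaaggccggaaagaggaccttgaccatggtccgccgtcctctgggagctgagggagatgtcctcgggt
BYSL: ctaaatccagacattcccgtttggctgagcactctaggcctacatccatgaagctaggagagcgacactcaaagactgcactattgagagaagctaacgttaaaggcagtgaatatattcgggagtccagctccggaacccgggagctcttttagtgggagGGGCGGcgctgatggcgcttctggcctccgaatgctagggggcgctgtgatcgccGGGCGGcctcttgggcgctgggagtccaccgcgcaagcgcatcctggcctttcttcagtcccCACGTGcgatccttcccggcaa
KCTD20: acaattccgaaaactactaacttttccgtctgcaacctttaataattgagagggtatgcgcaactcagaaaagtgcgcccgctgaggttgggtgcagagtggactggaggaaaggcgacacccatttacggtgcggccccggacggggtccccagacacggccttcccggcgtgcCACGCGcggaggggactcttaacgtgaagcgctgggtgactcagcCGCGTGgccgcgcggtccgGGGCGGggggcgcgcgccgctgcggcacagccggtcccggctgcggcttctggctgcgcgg
FKBP5: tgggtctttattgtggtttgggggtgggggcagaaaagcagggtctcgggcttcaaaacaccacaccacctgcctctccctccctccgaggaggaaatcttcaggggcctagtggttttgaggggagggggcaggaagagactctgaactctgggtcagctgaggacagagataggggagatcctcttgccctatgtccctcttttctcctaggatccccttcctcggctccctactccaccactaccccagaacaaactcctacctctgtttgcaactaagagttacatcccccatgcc

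The ACOT13 window held 4 matches to GGGCGG on either strand, as did that of TDP2, not all of them in the bases the windows share. MED20 and BYSL each held 2, and BYSL, the neighbour with the higher log2 fold change, also held 1 CACGTG. The KCTD20 window was rich in CpG, with 35 of them at 65.7% GC and 2 matches to CGCGTG. The FKBP5 window had 3 CpG at 55.7% GC and none of the 6 motifs. A match is a description of letters and not a binding site.

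RefSeq windows were matched for 43 of the 45 members, all but DAXX and STK38. Their median GC content was 64% and their median number of CpG was 25, against 65.3% and 26 over 9873 tested genes with a window. GGGCGG on either strand occurred in 34 of the 43 (79.1%), against 69.7% of the tested genes' windows and 44.6% of all 27305 windows. CCAAT occurred in 17 (39.5%, against 36.4% of the tested genes), CGCGTG in 10 (23.3%, against 18.2%), CACGTG in 5 (11.6%, against 9.92%) and TATAAA in 3 (6.98%, against 5.66%). TTTGGCGC occurred in 0 of the 43 and in 1.1% of the tested genes. No test was made of these shares.

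GC content, taken over the exons of each gene's longest transcript, moved with the members' fold changes. Over 43 tested members with a known GC content, GC percent and log2 fold change had a Pearson r of 0.39, and over 11009 genes with a mean CPM over 4 the r was 0.37. Members at or below the median GC content had a median log2 fold change of -0.37, with 15 of 22 called lower. Those above it had a median of -0.14, with 7 of 21 called. Over all genes tested 19.1% were called lower, and shares of all genes by GC content were not computed. With offsets for GC content and length in each library, the medians of the GC-poor and GC-rich members were -0.28 and -0.31. Over the members r was then -0.28. The median over all members was -0.29 with the offsets, 28 were called lower and 2 higher, against 16.7% and 16.9% of all genes tested in that fit. The 2 called higher were FKBP5 (0.40) and DST (0.40).

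Single members changed place with the offsets. RING1 went from -0.10 to -0.42, HMGA1 from -0.011 to -0.29 and DDR1 from -0.24 to -0.45, all GC-rich genes. CD2AP went from -0.53 to -0.28, RAB23 from -0.29 to -0.091 and ACOT13 from -0.24 to -0.068, all AT-rich. KCTD20 stayed low at -0.76, RNF144B at -0.62 and ATXN1 at -0.52. Of the 5 members above 0 without offsets, SOX4 (0.00033), FKBP5 and DST were above 0 with them, while PIM1 (-0.15) and BYSL (-0.089) were below. SRSF3 (0.013) and SUPT3H (0.031) went from below to above 0. The spread between members was an SD of 0.23 under both.

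**Figure D3:**
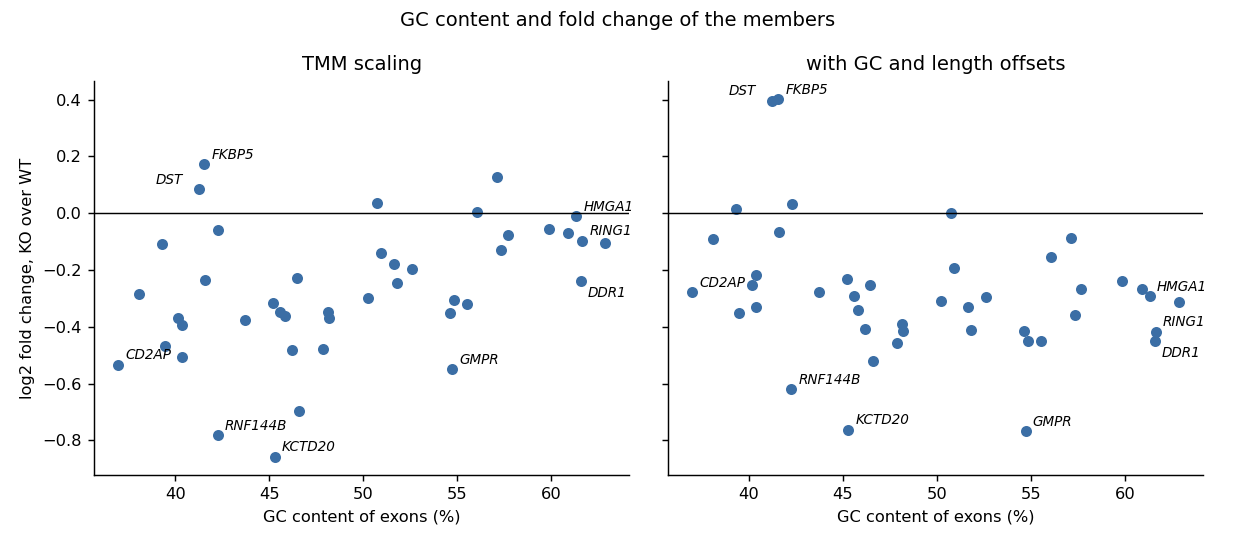
Log2 fold change in KO over WT (vertical axis) against the GC content of the exons of the longest transcript in percent (horizontal axis) for 43 members. TMM scaling is on the left, and GC and length offsets are on the right. On the left GC-poor members lie lower (r = 0.39), and on the right r is -0.28, while FKBP5 and DST stand above the rest.

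Place along the arm went with the members' values before the offsets and less so after them. The 15 members telomeric of the outermost HLA gene had a median of -0.37, the 6 tested members between the outermost HLA genes one of -0.16, and the 23 centromeric members one of -0.14. With the offsets these medians were -0.31, -0.33 and -0.29. Median GC content of the 3 groups was 45.8%, 58.6% and 48.2%. The part of GC content in the order before the offsets was not tested.

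The other genes of the same span had values close to those of the members. The 305 further tested genes from 10 to 60 Mb had a median of -0.29, with 228 below 0 and 107 called lower (35.1%) against 14 called higher. The 13 tested HLA genes had a median of -0.0081 with 1 called lower and 3 higher, and the 11 HIST genes one of -0.24 with 0 called lower and 1 higher in edgeR. At an unadjusted p under 0.05 edgeR had 1 HIST gene lower. At an adjusted p under 0.05 DESeq2 called 0 lower, and limma called 3 with log2(RPKM + 1) and 2 with log2(RPKM + 0.1). Before 10 Mb the median over 45 genes was -0.14, and from 60 Mb to the end it was -0.060 over 336 genes. With the offsets the HLA genes had a median of -0.23 and the genes from 60 Mb on one of 0.029. All these segments come from the contrast that chose the members and are descriptions.

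By 10-Mb window, the 5 windows that chose the members had medians from -0.45 to -0.18 before the offsets and from -0.41 to -0.30 after them. The next 3 windows, past the centromere, had medians of -0.32, -0.29 and -0.26 before the offsets and of -0.11, -0.15 and -0.15 after them. The edges of the segment ran as follows. Nearest before 10 Mb lay EEF1E1 (0.016 ± 0.24, SE), SLC35B3 (-0.53 ± 0.14) and OFCC1 (0.29 ± 0.53). Nearest after it lay TFAP2A (-0.24 ± 0.070), RP1-290I10.6 (-0.19 ± 0.75) and LINC00518 (-0.45 ± 0.54). Nearest before 60 Mb lay PRIM2 (-0.61 ± 0.087), LINC00680 (-0.29 ± 0.15) and XXbac-BPG55C20.7 (-1.03 ± 0.64). Nearest after it lay PTP4A1 (-0.32 ± 0.057), RP5-1148A21.3 (-2.78 ± 0.76) and PHF3 (-0.58 ± 0.062). These genes lay 2.04 to 3.64 Mb from 60 Mb. RP5-1148A21.3 was at 0.217 and 0.122 CPM in KO, near the floor, against 1.16 and 1.29 CPM in WT. OFCC1, RP1-290I10.6, LINC00518 and XXbac-BPG55C20.7 were also low, between 0.183 and 1.57 CPM. The better expressed genes around 60 Mb, PRIM2, LINC00680, PTP4A1 and PHF3, were thus below 0 on both sides. With the offsets PTP4A1 was at -0.058 and PHF3 at -0.28.

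**Figure D4:**
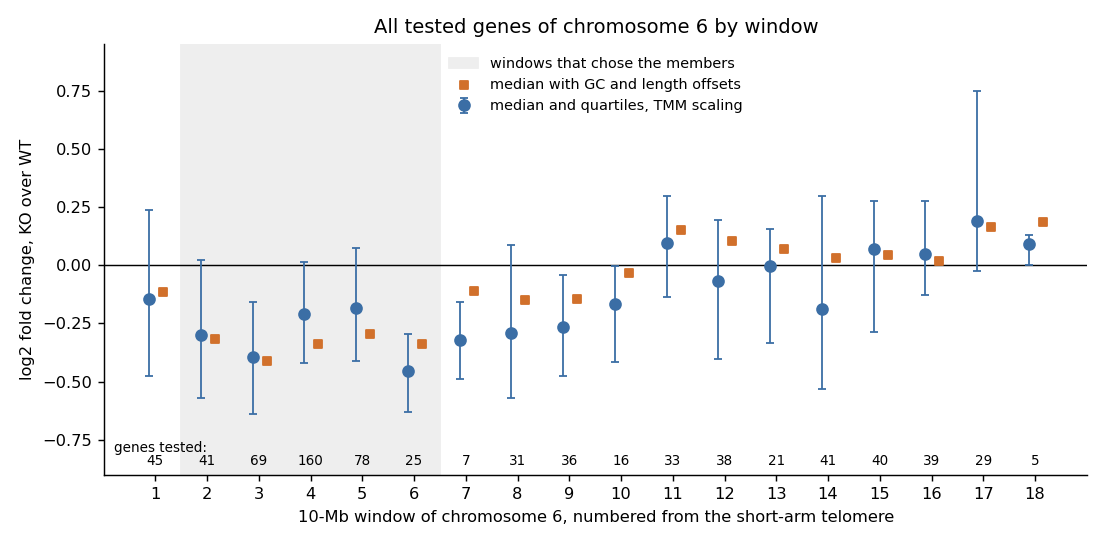
Median log2 fold change in KO over WT (vertical axis) of the tested genes in each 10-Mb window of chromosome 6, numbered from the short-arm telomere (horizontal axis). Blue points with bars are medians and quartiles with TMM scaling, orange squares medians with GC and length offsets, shading the windows that chose the members, and the numbers below are genes tested. The shaded medians lie between -0.45 and -0.18, and windows 7 to 9 move from -0.32, -0.29 and -0.26 to -0.11, -0.15 and -0.15 with the offsets.

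Partners of the members' products on other chromosomes played no part in the choice of members and were tested in the same fit. The partner sets were, however, chosen with earlier results of these data known. Some partners named below were added after their values were seen. Of 124 complex partners and paralogs listed, 121 were tested, of which 21 (17.4%) fell and 23 (19%) rose, beside 19.1% and 20.4% of all genes tested. Their median log2 fold change was -0.023, beside -0.0042 over all genes tested. With the GC and length offsets 17 fell and 19 rose. Scaling by library totals only gave 27 lower and 18 higher. Limma on log2(RPKM + 1) gave 22 and 13, and limma on log2(RPKM + 0.1) gave 23 and 13. Over all genes tested these fits called 3615 lower and 2508 higher, 2879 and 2140, and 2902 and 2149. The balance of directions thus moved with the scaling in all genes tested as in the partners. Of the 44 calls, 11 were lost on each of the limma scales, those of EZH1, PHC1, WIZ, BRD1, ING5, ERCC2, CDC37, SGTA, FOXP1, PIM3 and FLOT2. DESeq2 lost 10, those of EZH2, EZH1, PHC1, ERCC2, CCNH, CCDC101, SGTA, BLOC1S4, FOXP1 and FLOT2.

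Both catalytic subunits of casein kinase 2, the partners of CSNK2B, fell. CSNK2A2 was at 87.8 and 82.5 CPM in KO against 146 and 129 CPM in WT (-0.69 ± 0.071, SE, adjusted p = 4.3e-10, edgeR), and CSNK2A1 at 134 and 146 CPM against 167 and 168 CPM (-0.26 ± 0.063, adjusted p = 0.00117, edgeR). KO libraries lay below WT libraries in both. With the offsets CSNK2A1 was at -0.16 and still called. CSNK2B itself, on 32 to 43 counts a library, gave -0.25 ± 0.38.

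The other subunits of PRC2, the complex of JARID2, moved both ways, with 4 of 9 lower and 2 higher. AEBP2 (-0.48 ± 0.078, SE, adjusted p = 3.8e-06) and SUZ12 (-0.42 ± 0.066, adjusted p = 2.7e-06), a core subunit, fell, as did MTF2 and the catalytic subunit EZH2 (-0.23). PHF19 (0.38 ± 0.068, adjusted p = 2.4e-05) and EZH1, the other catalytic subunit (0.32), rose. With the offsets SUZ12 was at -0.19, AEBP2 at -0.27 and PHF19 at 0.24, all still called, and the calls of MTF2 (-0.093), EZH2 (-0.094) and EZH1 (0.28) were lost. EZH2 was also not called without KO replicate 1 (-0.24), KO replicate 2 (-0.20) or WT replicate 1 (-0.14), EZH1 without KO replicate 1 (0.19), WT replicate 1 (0.29) or WT replicate 2 (0.35), and MTF2 without WT replicate 1 (-0.24). Of 16 PRC1 genes beside RING1, 3 fell and 2 rose. The largest changes were those of PCGF5 (-0.87 ± 0.084, adjusted p = 1.0e-10), PCGF1 (0.54 ± 0.15) and PHC1 (-0.51 ± 0.18), of which the PCGF proteins define the variants of the complex. PHC3 fell (-0.46 ± 0.092) and PHC2 rose (0.43 ± 0.069), and with the offsets both were still called (-0.22 and 0.25). The call of PHC1 was lost without KO replicate 2 (-0.39) or WT replicate 1 (-0.37), and that of PCGF1 with the offsets (0.33), under which PCGF5 was at -0.57.

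Partners of the remaining chromatin members were mixed as well. ATRX, which works with the histone chaperone DAXX, fell from 184 and 164 CPM in WT to 108 and 121 CPM in KO (-0.60 ± 0.068, SE, adjusted p = 4.2e-09, edgeR), whereas the genes of their histone cargo, H3F3A and H3F3B, were not called (0.082 and 0.097). With the offsets ATRX was at -0.23. In the acetyltransferase complexes of BRPF3, KAT6B fell (-0.75 ± 0.11, adjusted p = 1.3e-06), as did KAT7 and KAT6A, and ING5 (0.52 ± 0.14) and BRD1 (0.37 ± 0.10) rose. The call of KAT7 was lost without WT replicate 1 (-0.22), and that of KAT6A without KO replicate 1 (-0.17) and with the offsets (-0.080). The calls of ING5 and BRD1 were lost with limma on log2(RPKM + 1), with values of 0.35 and 0.26, and on log2(RPKM + 0.1), with values of 0.44 and 0.29. In the EHMT2 complex the zinc finger proteins WIZ (0.25) and ZNF644 (-0.29) were called in opposite directions, and both calls were lost with the offsets (0.024 and -0.039). WIZ was also not called without WT replicate 1 (0.21).

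Among partners in transcription, 0 of 6 Mediator head subunits passed the threshold in edgeR, with values from -0.12 to 0.14 beside -0.37 for MED20, and 0 had an unadjusted p under 0.05 in edgeR, DESeq2 or limma. Of 8 TFIIH subunits CCNH fell (-0.27 ± 0.097) and ERCC2 rose (0.29 ± 0.097). Both calls were lost with the offsets (-0.079 and 0.11), CCNH also without KO replicate 2 (-0.21), WT replicate 1 (-0.29) or WT replicate 2 (-0.26), and ERCC2 without KO replicate 1 (0.21) or WT replicate 2 (0.16). In SAGA, the complex of SUPT3H, KAT2A, its acetyltransferase, rose (0.47 ± 0.083, SE, adjusted p = 1.7e-05), as did TAF6L (0.67 ± 0.19) and CCDC101 (0.38 ± 0.14), an older symbol of SGF29, and USP22 fell (-0.21). With the offsets KAT2A was at 0.27. The TAF6L call was lost without WT replicate 2 (0.47) and with the offsets (0.33). That of CCDC101 was lost without KO replicate 1 (0.36) or WT replicate 1 (0.28) and with the offsets (0.056).

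HSP90AA1, the inducible paralog of HSP90AB1, fell from 2548 and 2456 CPM in WT to 2043 and 1999 CPM in KO (-0.31 ± 0.044, SE, adjusted p = 5.3e-07, edgeR). The co-chaperone PTGES3 fell as well (-0.32 ± 0.053, adjusted p = 7.2e-06). Of 8 partners tested in the HSP90 system, 2 fell and 1 rose, with a median of 0.038. AHSA1, STIP1, FKBP4, PPID and HSPA8 were not called. CDC37, which brings kinases to HSP90, was called higher (0.22 ± 0.056) but lay at -0.081 and was not called with the offsets, so its direction turned. In the BAG6 complex UBL4A (0.32) and SGTA (0.20) were called higher, and with the offsets neither was called (0.12 and -0.086), SGTA with the opposite sign. The SGTA call was also lost without KO replicate 2 (0.19), WT replicate 1 (0.22) or WT replicate 2 (0.19). Of the BLOC-1 subunits beside DTNBP1 only BLOC1S4 was called (0.60 ± 0.19), and not with the offsets (0.38) or without WT replicate 1 (0.45).

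The PP2A scaffold subunits moved in opposite directions, PPP2R1A up (0.41 ± 0.066, SE, adjusted p = 3.8e-06, edgeR) and PPP2R1B down (-0.38 ± 0.082, adjusted p = 0.000293, edgeR), the latter at -0.22 with the offsets. PPP2R5E, a paralog of PPP2R5D, fell (-0.39 ± 0.076), a call lost with the offsets (-0.13). Of 8 PP2A partners tested, 2 fell and 1 rose, and PPP2CA, PPP2CB, PPP2R5A, PPP2R5B and PPP2R5C were not called. Of 30 tested paralogs and direct partners of single members, 1 fell and 7 rose. CBFB, the binding partner of RUNX2, fell (-0.50 ± 0.066, adjusted p = 9.1e-08), and the RUNX paralogs RUNX3 (0.82 ± 0.19, adjusted p = 0.000801) and RUNX1 (0.42 ± 0.067) rose. RUNX2 itself had a value of -0.48, so the 3 RUNX genes did not share a sign. PLEC, plectin, a plakin like DST, rose from 1425 and 1473 CPM in WT to 2312 and 2361 CPM in KO (0.69 ± 0.045, adjusted p = 5.0e-15, edgeR). FOXP1, TUBB4B, PIM3 and FLOT2 were also called higher (0.39, 0.43, 0.27 and 0.17), while the members FOXP4, TUBB, PIM1 and FLOT1 of the same families gave -0.11, -0.20, 0.0057 and -0.13. With the offsets PIM3 and FLOT2 lay below 0 (-0.092 and -0.018), so their direction turned, TUBB4B was at 0.18 and FOXP1 at 0.64. Calls were also lost for FOXP1 without KO replicate 2 (0.31) or WT replicate 2 (0.37), for PIM3 without WT replicate 2 (0.19), and for FLOT2 without KO replicate 1 (0.14) or WT replicate 2 (0.12).

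**Figure D5:**
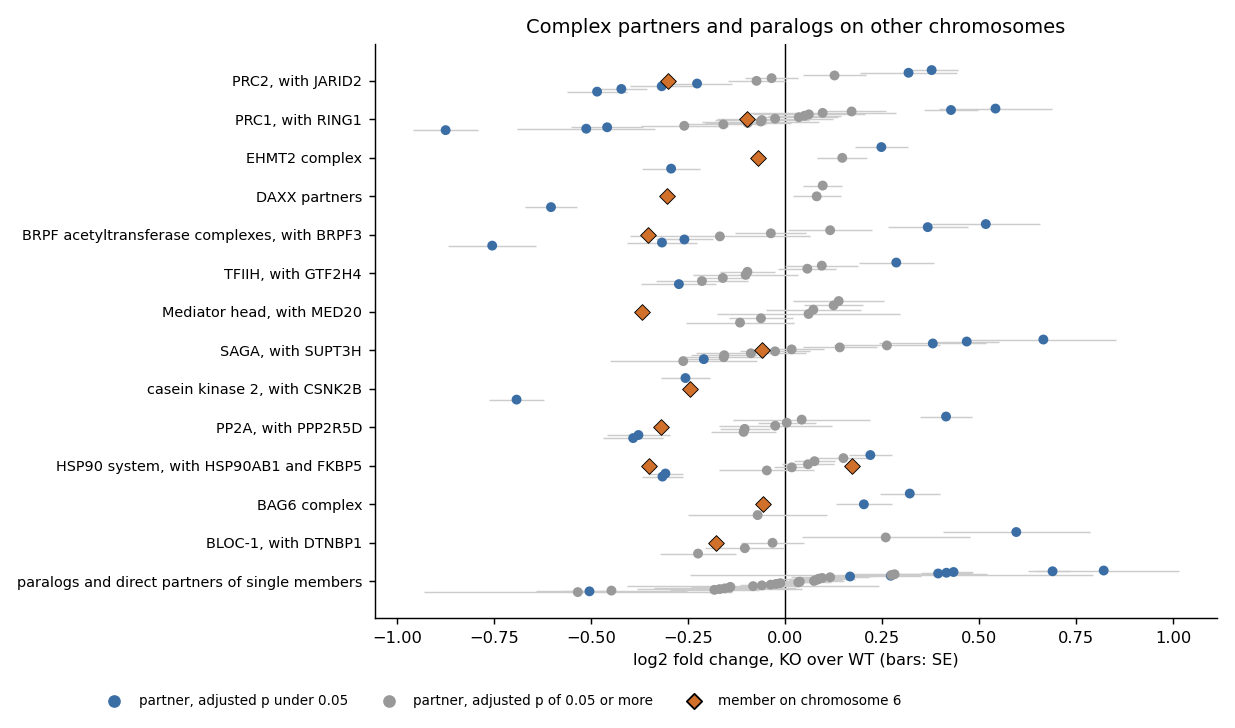
Log2 fold change in KO over WT (horizontal axis, bars SE) of 121 tested partners and paralogs on other chromosomes, by complex or set (vertical axis). Blue points passed an adjusted p under 0.05, and orange diamonds are the members of the same complex on chromosome 6. Partners spread to both sides of 0, with 21 called lower and 23 higher, and both casein kinase 2 partners lie below 0.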

How the data were processed

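RNA was sequenced from 2 ATAD3A KO and 2 parental (WT) HN12 libraries, made per the study's methods from independent cultures and read as 50-nt reads. The authors deposited raw read counts per gene and RPKM values that equal each count divided by gene length and library total. Per the labels and the submitters' processing notes, STAR 2.5 and HTSeq were used with build hg19. The annotation release and use of strand are not given in the sources used here. Differential expression was computed from the deposited counts with edgeR 4.0.16 in R 4.3.3 (filterByExpr, TMM, glmQLFit and glmQLFTest, Benjamini-Hochberg over 15104 genes), and levels are TMM-scaled CPM. The biological coefficient of variation was 5.88%, and a count of 0 allows up to 3 counts, or 0.163 to 0.216 CPM, for counting error only. Each p-value measures the spread between 2 cultures a group. Whether the KO cultures came from the same clone is not given in the sources used here, so spread between clones cannot be judged. Alternatives were DESeq2 1.42.0 and its size factors, library totals, other filters, a replicate block, limma 3.58.1 on log2(RPKM + 1) and log2(RPKM + 0.1), offsets from splines of GC content and length with 4 degrees of freedom, and leaving out each library. Positions, GC content and overlaps came from GENCODE 29 and promoters from RefSeq, both on GRCh38, since the files hold no coordinates. GC content was that of the longest transcript of each gene. NUDT3 was placed by symbol from RefSeq and has no GC content. In the fit with offsets, genes with no GC content were given the median of the genes used for the trends. The members, role groups, partner sets, motifs and marker lists were chosen with earlier results of these data known. Each role group's lowest, highest and most abundant member, and up to 3 called partners of each set with the largest changes, were named with values. The partners MTF2, EZH2, EZH1, PHC2, PHC3, H3F3A, H3F3B, KAT7, KAT6A, USP22, RUNX1, FOXP1, TUBB4B, PIM3 and FLOT2 were added after their values were seen.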

Additional observations from a re-analysis of the deposited data

How the results depend on the processing

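The members' median stayed between -0.34 and -0.23 under the 13 alternatives run. Under the alternatives that kept all 4 libraries, 18 to 28 members were called lower. Among all genes of these same fits, 2202 to 3615 were called lower. Library totals only gave medians of -0.34 for the members, -0.21 before 10 Mb, -0.36 for other genes from 10 to 60 Mb, -0.31 for HIST genes and -0.13 from 60 Mb on. With no filter on low counts the medians were -0.26 before 10 Mb, -0.50 for HIST genes and -0.12 from 60 Mb on, and with at least 10 counts in every library that of HIST genes was -0.022. With limma on log2(RPKM + 1) they were -0.29 for the members and -0.20 before 10 Mb. From 10 to 60 Mb and from 60 Mb on they were -0.25 and -0.10. With log2(RPKM + 0.1) the values in this order were -0.33, -0.22, -0.34 and -0.14, with -0.32 for HIST genes. Each limma fit called 13 partners higher, beside 2140 and 2149 of all genes tested. The GC content and length offsets gave 2 members called higher, a median of -0.29 for the members, and -0.12, -0.33, -0.23 for HLA genes, -0.20 for HIST genes and 0.029 for the segments in order, and turned the sign of CDC37 (-0.081), SGTA (-0.086), PIM3 (-0.092) and FLOT2 (-0.018). Of 44 called partners, 26 kept their call and sign with these offsets, against 34 with DESeq2 and 34 to 39 with a library left out. The cause of these shifts was not tested. Leaving out single libraries gave medians of -0.30 to -0.23 for the members and -0.18 to -0.14 before 10 Mb. They were -0.31 to -0.27 from 10 to 60 Mb, -0.34 to -0.24 for HIST genes and -0.094 to -0.048 from 60 Mb on.

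Same-numbered libraries did not deviate together (correlation -0.022), and nothing in the labels pairs them. With a replicate block 22 members were called lower and 0 higher with a median of -0.27, and 20 partners fell and 23 rose. Among all genes of that fit, 2810 were called lower and 3010 higher. The 2 libraries a group and low counts limit what could be seen for GMPR, CSNK2B and GTF2H4.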
